A study of Mus musculus with 6 samples.

Results

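The 44 collagen chain genes of the mouse genome were followed through 6 RNA sequencing libraries of Glu-tag cells, a line that the labels place in the small intestine and that stands in the series for small intestinal neuroendocrine tumours (SI-NETs). They were taken from the deposited count table as every protein-coding gene whose name is Col, a number, the letter a and a number, which picked 44 of 54532 genes and of 22046 protein-coding genes. Of the 44 genes, 22 had enough counts to be tested, among 13472 genes tested in all. Members were chosen by name, so no level or difference decided which genes belong. The family itself was chosen with earlier results of these data known.

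The knockdown cells carried a stable short hairpin meant to silence Irs2, an adaptor that passes on signals of the insulin and IGF receptors, and have the genotype label IRS2 Knockdown. The cells they were compared with carried a control hairpin and have the genotype label WT. Each group had 3 libraries, numbered 1 to 3 in the titles, and they are called shIRS2 and shControl below. The sources used here give neither the hairpin sequences nor the vector, nor whether each line was a pool or a clone, and no age, strain or treatment is labelled. The libraries held 16985361, 16428788 and 15654814 counts in shIRS2 and 14991019, 19790073 and 17711094 counts in shControl.

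The labels were checked against the data before any comparison. Irs2 had 4.93, 4.59 and 6.09 FPKM (fragments per kilobase of gene, scaled to library size) in the libraries labelled shIRS2, against 4.88, 3.62 and 5.38 FPKM in shControl. Its level in the shIRS2 libraries was thus no lower, with a log2 fold change of 0.17 (SE 0.16, 95% interval -0.20 to 0.54, edgeR adjusted p = 1.00), so the directions below belong to the labels and not to a measured loss of Irs2. Of 11 enteroendocrine genes, Gcg, Chga, Neurod1, Pcsk1 and Pcsk1n had 0 counts in all 6 libraries, a total that sets an upper limit of 0.0295 CPM (counts scaled to library size), and Pax6 and Nkx2-2 were the ones with enough counts to test. Of 6 epithelial genes, Krt8 averaged 202 FPKM in shIRS2 and 201 FPKM in shControl, and Krt18 averaged 3.33 and 3.39 FPKM. Cdh1 had 14 counts, Krt19 had 3, Epcam had 1 and Cldn4 had 0 in all. Of 12 fibroblast genes outside the collagens 6 were tested, among them Prrx1 with 17.2 FPKM in shIRS2 and 14.1 FPKM in shControl, and Fbln1, Postn and Thy1 had 0 counts. The summed level of the 12 genes was 386.8, 328.1 and 347.6 CPM in shIRS2 and 310.3, 281.7 and 334.8 CPM in shControl. The largest part of this sum is Prrx1, which averaged 174 CPM over all libraries, beside 57.6 CPM for Pdgfra and 42.9 CPM for Pdgfrb. Between groups, 5 of the 6 tested genes had a log2 fold change above 0, beside 49.9% of all genes. Pdgfrb went the other way, with 7.51 FPKM in shIRS2 and 8.11 FPKM in shControl. In bulk RNA, fewer cells of a kind and less RNA per cell cannot be told apart, and the cells are called here by their label alone.

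Collagens are extracellular matrix proteins built from 3 chains wound into a helix, which needs glycine at regular steps along each chain. Fibrillar collagens assemble into banded fibrils that bear tension, type IV collagen forms the sheet-like network of basement membranes, and type VI collagen forms beaded filaments where basement membranes meet the fibrils. FACIT collagens sit on the surface of fibrils, short-chain collagens form lattices, multiplexins carry interrupted helices in basement membranes, and transmembrane collagens stay anchored in the cell membrane. In the intestine, fibrillar collagens come mainly from fibroblasts, while epithelial cells rest on a type IV network.

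The glycine rule is written in the coding sequence as a codon that starts with GG in the first place of every 3 codons. To show what the named chains share, 54 bases from the coding sequence of 6 of them are printed from GENCODE M21 transcripts of the GRCm38 build, 5′ to 3′ on the coding strand, with the glycine codon that opens each triplet in capitals. The stretches lie at chr1:45325360-45325413 on the plus strand for Col3a1, chr8:11247042-11247095 on the minus strand for Col4a1, chr1:90791924-90791977 on the minus strand for Col6a3, chr16:57628039-57628092 on the minus strand for Col8a1, chr9:20801068-20801121 on the minus strand for Col5a3 and chr19:47664964-47665017 on the minus strand for Col17a1. The first 5 belong to the chains whose levels or differences carry the results below, and Col17a1 is the transmembrane chain.
Col3a1: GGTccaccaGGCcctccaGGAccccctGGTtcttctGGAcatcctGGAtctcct
Col4a1: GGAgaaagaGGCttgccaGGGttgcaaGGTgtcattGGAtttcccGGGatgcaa
Col6a3: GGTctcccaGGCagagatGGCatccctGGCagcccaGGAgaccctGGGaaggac
Col8a1: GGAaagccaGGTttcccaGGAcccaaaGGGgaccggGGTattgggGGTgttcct
Col5a3: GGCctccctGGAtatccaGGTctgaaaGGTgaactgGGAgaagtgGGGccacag
Col17a1: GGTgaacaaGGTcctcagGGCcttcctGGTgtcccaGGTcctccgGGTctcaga

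The stretches of Col3a1, Col6a3 and Col5a3 are whole exons of 54 bases, coding exons 6 of 51, 19 of 40 and 15 of 67. The stretches of Col4a1, Col8a1 and Col17a1 are parts of longer exons, coding exons 3 of 52, 2 of 2 and 23 of 52, and the one of Col8a1 lies in an exon of 1904 bases that holds most of the chain. Over all 44 genes, 1222 of 1912 inner coding exons were a multiple of 9 bases long, or 63.9%, against 13.7% of the inner coding exons of the other protein-coding genes. Exons of exactly 54 bases made up 24.5% of the collagen exons and 0.435% of the others.

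The run of glycine-led codon triplets without a break was longest in the fibrillar class, and its ranges overlapped among most other classes. It was 216 to 344 triplets long in the 11 fibrillar chains, 39 to 66 in the 6 chains of the basement membrane network, 37 to 87 in the 6 beaded filament chains, 32 to 113 in the 9 FACIT chains, 60 to 61 in the 3 short-chain collagens, 40 to 56 in the 4 transmembrane chains and 30 in both multiplexins. All 44 genes had a run of at least 10 triplets, which 54 other protein-coding genes, or 0.249%, also had. Nothing about expression entered this description, and the gene names already select the family.

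**Figure D1:**
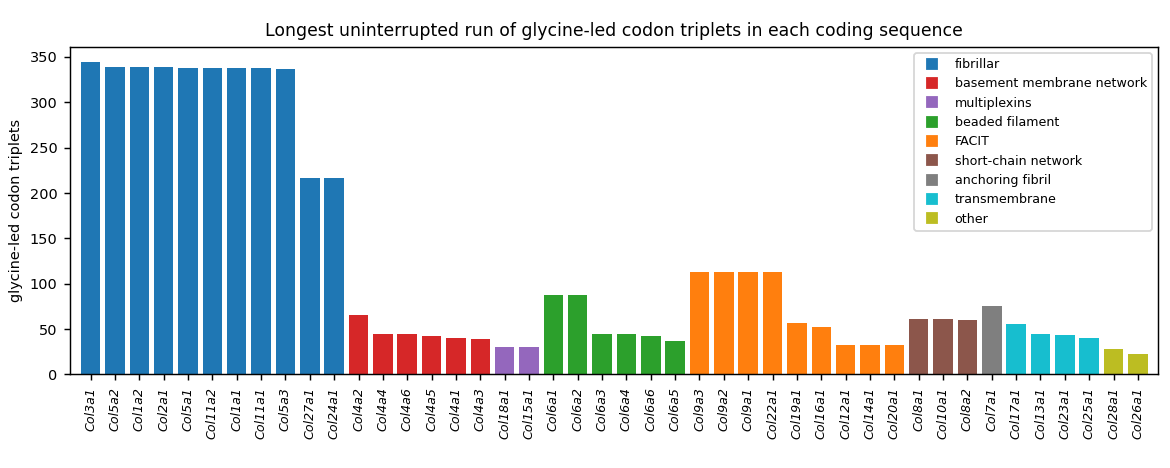
Each bar is the length of the longest uninterrupted run of glycine-led codon triplets (vertical axis, number of triplets) in the coding sequence of 1 of the 44 collagen chain genes, coloured by class. The fibrillar chains have the longest runs, 216 to 344 triplets, and the highest run outside them is 113.

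Collagen RNA was plentiful and came from a limited set of chains. Of the 44 genes, 15 averaged at least 1 FPKM over the 6 libraries, 7 were tested below that level and 22 were too low to test. Together the 44 genes held 360, 402 and 410 FPKM in shIRS2, against 295, 334 and 414 FPKM in shControl, a mean of 391 ± 26.6 and 348 ± 60.9 (SD, n = 3 each). The shIRS2 values fall within the range of shControl, so the groups overlap in this sum. They took 0.319% of all counts in shIRS2 and 0.284% in shControl.

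The basement membrane network held 41.9% of the summed collagen FPKM and the fibrillar chains 33.7%. Beaded filament chains followed with 13.1%, FACIT chains with 4.42%, multiplexins with 3.98%, short-chain collagens with 2.11% and the anchoring fibril chain Col7a1 with 0.694%. Transmembrane collagens held 0.031%. FPKM divides counts by the listed gene length, so these shares compare chains per length. The listed lengths join all exons of a gene and can exceed the transcript a cell makes. Per kilobase of the main transcript, Col3a1 averaged 132 CPM and Col5a1 36.7 CPM, against 98.2 CPM for Col4a1 and 69.9 CPM for Col4a2. The order of the basement membrane network and the fibrillar class therefore depends on the length used, and it turned round with the main transcripts.

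**Figure D2:**
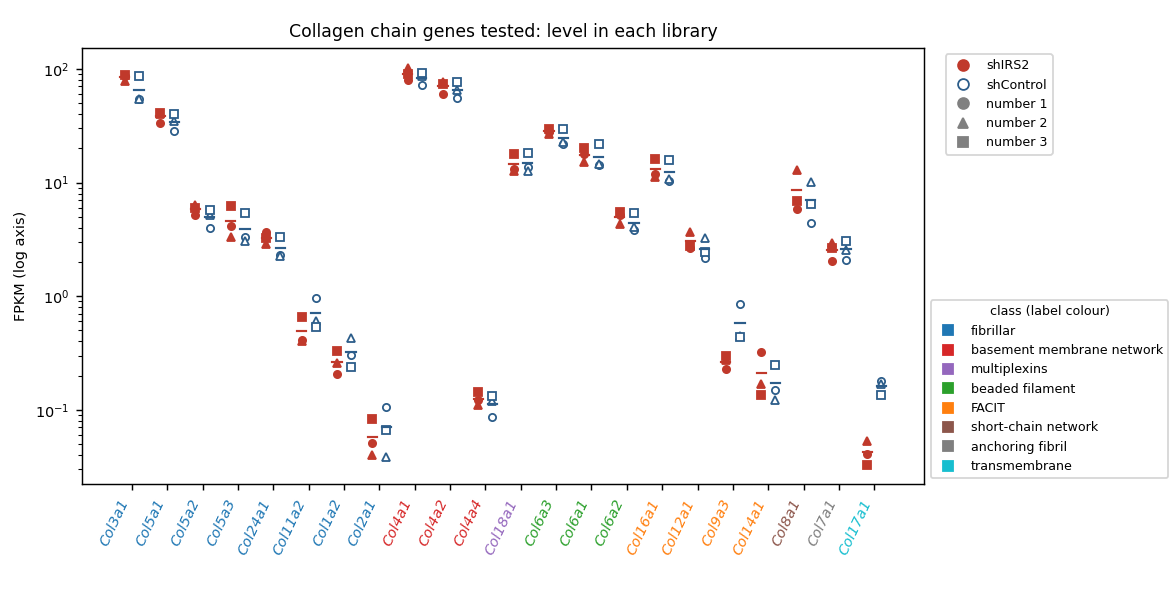
Each point is the level of 1 of the 22 tested collagen chain genes in 1 library (FPKM, log axis), with filled shIRS2 points left of open shControl points, the shape giving the replicate number and the short line the mean of 3 libraries. Gene labels are coloured by class, and Col4a1, Col3a1 and Col4a2 lie above 50 FPKM in every library. All shIRS2 libraries of Col9a3 lie below shControl, a pattern shown by 3.08% of all genes tested. Those of Col17a1 do too, but it is not counted, since the filter kept it through the control libraries alone.

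Col4a1 and Col4a2, the partner chains of the common type IV collagen, were the highest and the third highest collagen RNAs by mean level. Col4a1 had 79.7, 102 and 89.2 FPKM in shIRS2, against 71.8, 86.3 and 91.3 FPKM in shControl. Col4a2 had 60.0, 77.4 and 73.0 FPKM in shIRS2, against 55.1, 64.9 and 77.1 FPKM in shControl. For both genes the groups overlap and the library numbered 1 is the lowest of its group. The genes lie head to head on chromosome 8, with Col4a1 on the minus strand at 11198423 to 11312826 and Col4a2 on the plus strand at 11312805 to 11449287 in mm10, so that their starts overlap by 22 bases. Their ratio, Col4a1 over Col4a2, stayed between 1.18 and 1.33 in the 6 libraries. The other type IV chains, which serve specialised membranes such as that of the kidney filter, were scarce: Col4a4 averaged 0.119 FPKM and Col4a3, Col4a5 and Col4a6 had 22, 1 and 5 counts in all.

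Among fibrillar chains, Col3a1 stood highest. This chain forms type III collagen on its own and is typical of stretchable tissues such as gut wall and vessels. It had 86.3, 77.6 and 88.1 FPKM in shIRS2, against 54.1, 54.8 and 87.0 FPKM in shControl. The shControl libraries numbered 1 and 2 are below every shIRS2 library, and the shControl library numbered 3 is level with them. Col3a1 averaged 74.6 FPKM over the 6 libraries, against 86.8 FPKM for Col4a1, and this order turned round when the length of the main transcript, 5564 bases, replaced the listed length of 9816 bases.

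Type V collagen, which nucleates fibrils and limits their width, was present with all of its chains. Col5a1 had 33.2, 40.4 and 40.8 FPKM in shIRS2, against 28.3, 34.7 and 40.1 FPKM in shControl. Col5a2 had 5.15, 6.40 and 5.92 FPKM in shIRS2, against 3.99, 5.16 and 5.69 FPKM in shControl. In both genes shControl 1 is the lowest library and the groups overlap. Col5a3, a chain found in a less common form of type V collagen, had 4.15, 3.33 and 6.23 FPKM in shIRS2, against 3.29, 3.07 and 5.34 FPKM in shControl, with the library numbered 3 highest and the one numbered 2 lowest in each group. The ratio of Col5a1 to Col5a2 ran from 6.32 to 7.10 across libraries, while that of Col5a1 to Col5a3 ran from 6.54 to 12.1.

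Type I collagen, the main collagen of fibroblasts in most tissues, was nearly missing. Col1a1 had 20 counts in all 6 libraries together and was not tested, and Col1a2 averaged 0.295 FPKM. Col24a1, a fibrillar chain described in developing bone and eye, had 3.66, 2.90 and 3.27 FPKM in shIRS2, against 2.31, 2.25 and 3.35 FPKM in shControl. The shControl libraries numbered 1 and 2 lie below all shIRS2 libraries and shControl 3 lies among them. Col11a2, a partner of the cartilage fibrils, had 0.411, 0.407 and 0.651 FPKM in shIRS2, against 0.964, 0.611 and 0.541 FPKM in shControl, and the groups overlap. Col2a1, the main cartilage chain, averaged 0.064 FPKM.

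The 3 chains of common type VI collagen were all expressed. Col6a3 had 27.8, 27.0 and 29.6 FPKM in shIRS2, against 21.9, 22.9 and 29.5 FPKM in shControl. Col6a1 had 17.7, 15.0 and 20.0 FPKM in shIRS2, against 14.4, 14.6 and 21.7 FPKM in shControl. Col6a2 had 5.16, 4.30 and 5.48 FPKM in shIRS2, against 3.85, 4.02 and 5.40 FPKM in shControl. In all 3 genes the libraries numbered 3 of both groups are above the other 4 libraries, and the hairpin groups overlap. These chains join in equal numbers in the protein, whereas their RNA levels differed. By FPKM, Col6a3 was 1.36 to 1.79 times Col6a1, and Col6a1 was 3.43 to 4.02 times Col6a2. The size of these ratios depends on the length used, since Col6a2 is listed with 8326 bases and its main transcript has 3949. Per kilobase of the main transcript, Col6a3, Col6a1 and Col6a2 averaged 35.3, 18.5 and 9.95 CPM. The other type VI chains Col6a4, Col6a5 and Col6a6 had 12, 0 and 5 counts.

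Among the collagens that decorate fibrils or basement membranes, Col18a1, whose end fragment is endostatin, had 13.2, 12.8 and 17.7 FPKM in shIRS2, against 13.6, 12.7 and 18.0 FPKM in shControl. Col16a1, a FACIT chain, had 11.9, 11.2 and 16.1 FPKM in shIRS2, against 10.4, 10.8 and 15.9 FPKM in shControl. The hairpin groups overlap in both genes, and the libraries numbered 3 stand above the rest. Col18a1 overlaps Slc19a1 on the opposite strand by 8825 bases, and the strand setting of the counting is not given in the sources used here. Slc19a1 had 449, 773 and 510 counts in shIRS2, against 457, 806 and 558 counts in shControl, with its highest count in the libraries numbered 2.

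Col12a1, a FACIT chain of tendon and other tense tissue, had 2.66, 3.66 and 2.77 FPKM in shIRS2, against 2.16, 3.23 and 2.46 FPKM in shControl. Col8a1, a short-chain collagen of vessel walls and the cornea, had 5.90, 12.9 and 6.93 FPKM in shIRS2, against 4.43, 10.0 and 6.50 FPKM in shControl. Both genes were highest in the libraries numbered 2, above the other 4 libraries. Col7a1, which forms the anchoring fibrils that tie epithelium to the tissue beneath, averaged 2.54 ± 0.473 FPKM in shIRS2 and 2.58 ± 0.483 FPKM in shControl (SD, n = 3 each).

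The transmembrane class was close to absent. Col17a1, the hemidesmosome collagen of basal epithelium, had 4, 5 and 3 counts in shIRS2, against 16, 19 and 14 counts in shControl, equal to 0.041, 0.054 and 0.033 FPKM in shIRS2 against 0.181, 0.168 and 0.136 FPKM in shControl. All shIRS2 libraries lie below all shControl libraries, at levels near the bottom of what was counted. It reached the filter level of 0.599 CPM in 0 of 3 shIRS2 and 3 of 3 shControl libraries, so it was tested through the control libraries alone. Of 6 basal epithelial genes, the keratin genes Krt5 and Krt14 and the transcription factor gene Trp63 had 0 counts in all 6 libraries. The other 3 were tested: the linker gene Dst averaged 11.5 FPKM in shIRS2 and 11.1 FPKM in shControl, the integrin gene Itga6 averaged 14.5 FPKM in shIRS2 and 13.1 FPKM in shControl, and its partner Itgb4 averaged 0.454 FPKM in shIRS2 and 0.426 FPKM in shControl. The summed level of the 6 was 639.6, 632.5 and 544.4 CPM in shIRS2 and 555.5, 613.7 and 574.8 CPM in shControl, and their part in the Col17a1 levels was not tested. Most of this sum is Dst, which averaged 465 CPM over all libraries, beside 125 CPM for Itga6 and 3.09 CPM for Itgb4. Col13a1, Col23a1 and Col25a1 had 1, 6 and 0 counts.

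Of the 22 genes too low to test, 3 had 0 counts in all libraries (Col19a1, Col25a1 and Col6a5), 14 had 1 to 10 counts and 5 had more than 10. The highest FPKM of any of them in any library was 0.216. At the border of the filter, Col2a1 with 59 counts in all was tested and Col20a1 with 40 was not. Col9a3, a chain of the FACIT type IX collagen of cartilage, passed with 15, 17 and 18 counts in shIRS2, against 50, 34 and 30 counts in shControl.

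No collagen chain gene passed the test between the hairpin groups. The count was 0 of 22, and it was 0 of 13472 over all genes tested, or 0%, by edgeR's quasi-likelihood test with the Benjamini-Hochberg adjustment over all genes. At an unadjusted p under 0.05, 262 of all genes differed either way (1.94%). Of the collagen genes, Col9a3 was lower in shIRS2 at that level (background 0.861%) and none was higher (background 1.08%). Col17a1 is not counted, since the filter kept it through the control libraries alone and so fixed its direction. DESeq2 called 2 genes in all and 0 collagen genes, with 192 genes at an unadjusted p under 0.05.

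Col9a3 had a log2 fold change of -1.10 (SE 0.34, edgeR unadjusted p = 0.00961, adjusted p = 1.00), which did not pass. All of its shIRS2 libraries were below shControl, a pattern shown by 3.08% of all genes. The fitted log2 fold change of Col17a1 was -1.89 (SE 0.40), given as a description with no test. None of the 22 had all shIRS2 libraries above shControl, against 3.25% of all genes. The largest positive log2 fold change among chains of at least 1 FPKM was 0.36 for Col3a1 (SE 0.17, 95% interval -0.02 to 0.75, edgeR adjusted p = 1.00). Col24a1 came next with 0.31 (SE 0.17, 95% interval -0.07 to 0.70), and Col11a2 at a low level had -0.52 (SE 0.28, 95% interval -1.16 to 0.11).

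Among the 15 chains of at least 1 FPKM, 13 had a log2 fold change above 0, beside 49.5% of the 11109 genes of at least 1 FPKM. The fold changes of the 15 chains ran from -0.02 to 0.36 and their median was 0.17. Over all 22 tested members the median was 0.13 and 15 were positive, beside a median of -0.00 and 49.9% positive over all genes. The median over the 22 moved with single libraries: it was 0.03 without shControl 1, 0.08 without shControl 2, 0.25 without shControl 3, 0.08 without shIRS2 2 and 0.05 without shIRS2 3. For 14 of the 15 chains the 95% interval lay within 2-fold either way, so larger changes of these chains fall outside it, and Col8a1 was the exception with an interval of -0.53 to 1.11. Within each pair of libraries with the same number, the median log2 ratio of shIRS2 over shControl in these 15 genes was 0.30 in the pair numbered 1, 0.22 in the pair numbered 2 and 0.02 in the pair numbered 3. The ratio was positive in 13, 15 and 9 of the 15 genes. Over all genes tested the median ratios were -0.0018, -6.21e-05 and 0.0041, and the shares positive are not given here. The summed fibroblast genes given above, of which Prrx1 is the largest part, were also higher in shIRS2 in each pair of same-numbered libraries. Their part in the result was not tested.

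With the replicate number as a block, 1 of 13472 genes (0.00742%) and 0 of 22 collagen genes passed. At an unadjusted p under 0.05 there were then 8 members higher in shIRS2 (background 5.17%) and, with Col17a1 again not counted, Col9a3 lower (background 3.99%), beside 9.16% of all genes either way. The 8 were Col3a1, Col5a1, Col5a2, Col5a3, Col24a1, Col6a3, Col12a1 and Col8a1. Col3a1 had a log2 fold change of 0.40 in that fit (SE 0.11, edgeR adjusted p = 0.390), which did not pass.

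**Figure D3:**
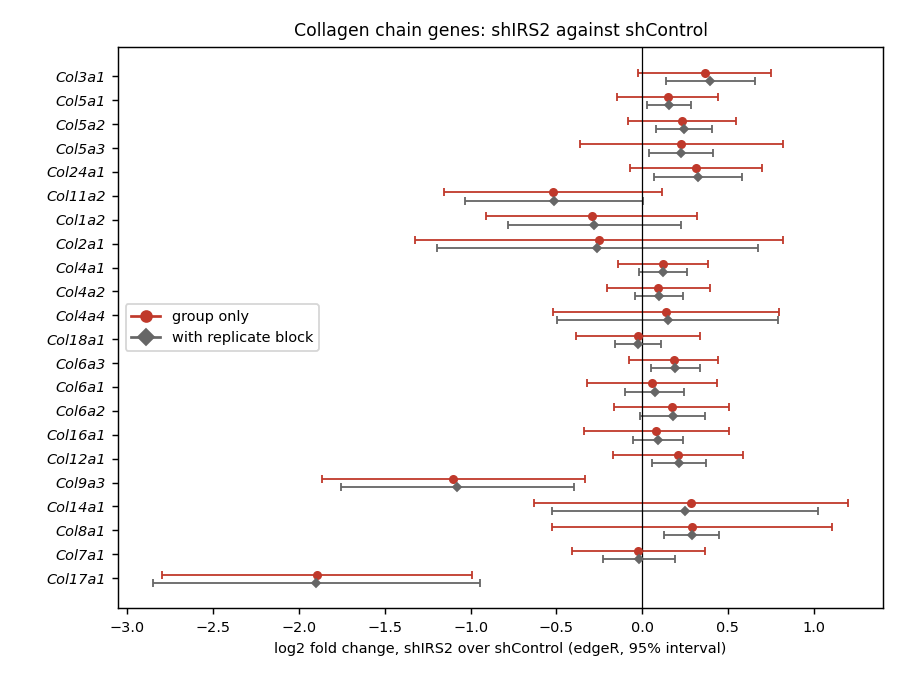
Points are the log2 fold change of shIRS2 over shControl for the 22 tested collagen chain genes, with bars for the 95% interval of edgeR's fit, in red with the group alone and in grey with the replicate number as a block. Most chains lie slightly right of 0 with intervals that narrow under the block, and Col17a1 at -1.89 and Col9a3 at -1.10 lie to the left.

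Many collagen genes passed the test between replicate numbers. In a fit with the group as a term, 13 of 22 members differed among the numbers 1, 2 and 3, beside 2638 of all 13472 genes (19.6%) and 22.7% of the 11109 genes of at least 1 FPKM. All 13 were among the 15 chains of at least 1 FPKM, where Col3a1 (edgeR adjusted p = 0.10) and Col24a1 (edgeR adjusted p = 0.175) did not pass. Each number had 2 libraries, 1 of each hairpin. What the numbers stand for is not labelled, so a day, a culture or a handling step cannot be told apart. Without the shControl library numbered 2 the count of members fell to 8, and limma on log2(FPKM + 1) called 4.

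**Figure D4:**
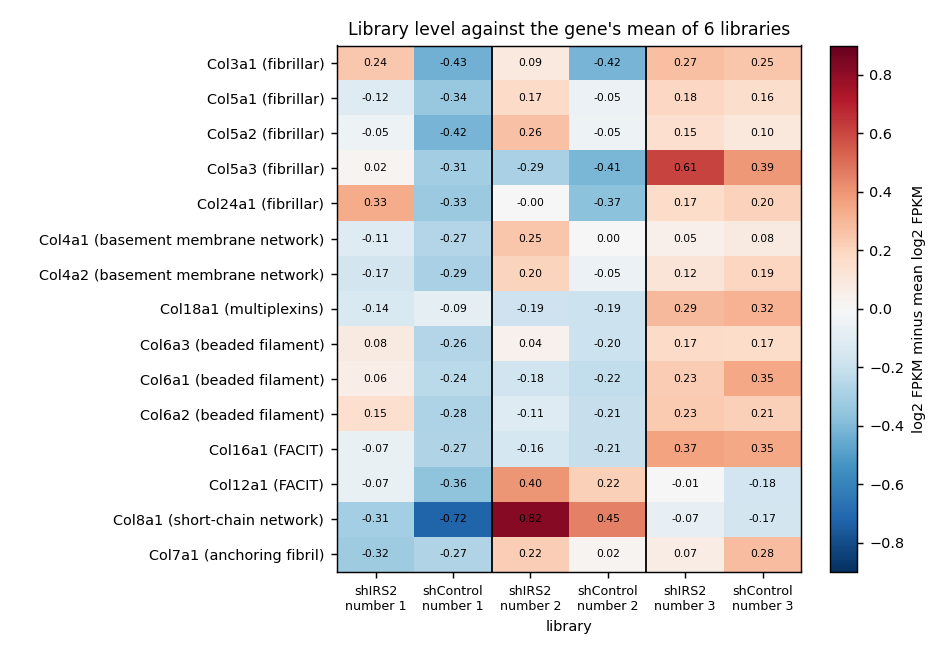
Each cell is the level of 1 of the 15 chains of at least 1 FPKM in 1 library, as log2 FPKM minus the gene's mean over the 6 libraries, with the libraries grouped by number and shIRS2 left of shControl. Col8a1 is 0.82 and 0.45 above its mean in the libraries numbered 2, the shControl library numbered 1 is below the mean for every gene, and most genes are above it in both libraries numbered 3.

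Number 2 against the mean of numbers 1 and 3 gave collagen calls both ways. Col8a1 rose with a log2 fold change of 0.95 (SE 0.08, edgeR adjusted p = 3.45e-06), and Col12a1 rose by 0.46 (SE 0.08, edgeR adjusted p = 0.000782), which makes 2 of 22 higher beside 11.6% of all genes. Col5a3 (-0.53), Col6a1 (-0.31), Col18a1 (-0.28) and Col16a1 (-0.28) fell, 4 of 22 beside 11.9% of all genes. The log2 fold change was above 0 for 9 of 22 members, beside 49.4% of all genes. Both libraries numbered 2 were above the other 4 for Col8a1 and Col12a1, 2 of 22 members beside 20.2% of all genes, and below them for Col18a1 and Col2a1, 2 of 22 beside 20%. The direction of this contrast was the same within shIRS2 and within shControl for 14 of the 15 chains of at least 1 FPKM. The share over all genes is not given here. Over all genes tested, the libraries numbered 2 also deviated together from their group means (correlation 0.645). That correlation does not give the share of genes with the same direction in both groups.

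Col8a1 and Col12a1 kept their calls without either library numbered 2, with log2 fold changes of 0.43 to 0.49 for Col12a1 over the libraries left out in turn. The 4 lower calls did not all hold. Without the shControl library numbered 2, Col16a1 (edgeR adjusted p = 0.163), Col18a1 (0.272) and Col6a1 (0.136) no longer passed, and 3 members remained called. Without the shIRS2 library numbered 2 these 3 and Col5a3 (edgeR adjusted p = 0.0749) no longer passed, and 2 members were called. Without shControl 1 and without shIRS2 3 the calls numbered 10 and 11.

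The calls of number 3 against number 1 were all in 1 direction. Col5a3 (log2 fold change 0.64, SE 0.11, edgeR adjusted p = 0.0244), Col16a1 (0.52, SE 0.08, adjusted p = 0.0227), Col18a1 (0.41, SE 0.08, adjusted p = 0.0409) and Col5a1 (0.40, SE 0.07, adjusted p = 0.0410) rose. These are 4 of 22 members beside 14 of 13472 genes (0.104%), and 0 of 22 fell beside 0.134% of all genes. All 15 chains of at least 1 FPKM had a positive log2 fold change here, from 0.12 for Col12a1 to 0.64 for Col5a3, and the median over the 22 tested members was 0.31, beside 0.00 and 50.2% positive over all genes.

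The same contrast within each hairpin group, on the log2 scale, was positive in 14 of the 15 chains in shIRS2 (median 0.20) and in 15 of 15 in shControl (median 0.51). Over all genes tested the medians were 0.0089 in shIRS2 and 0.0024 in shControl, and the shares positive are not given here. Both libraries numbered 3 were above the other 4 for 8 of 22 members (Col3a1, Col5a3, Col6a1, Col6a2, Col6a3, Col16a1, Col18a1 and Col4a4), beside 11.8% of all genes, and below them for 0 of 22, beside 9.86%. The calls of number 3 against number 1 depended on the fit: limma on log2(FPKM + 1) and a fit without the group term called 0 of 22, while 11 members were called with no filter on low counts and 12 without the shIRS2 library numbered 3. Col18a1 did not pass without shIRS2 1 (edgeR adjusted p = 0.0734), and Col5a1 did not pass without shControl 1 (0.0613) or shControl 3 (0.185). Between the libraries numbered 3 and 1, the summed fibroblast genes had 347.6 and 386.8 CPM in shIRS2 and 334.8 and 310.3 CPM in shControl, and their part in the result was not tested.

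**Figure D5:**
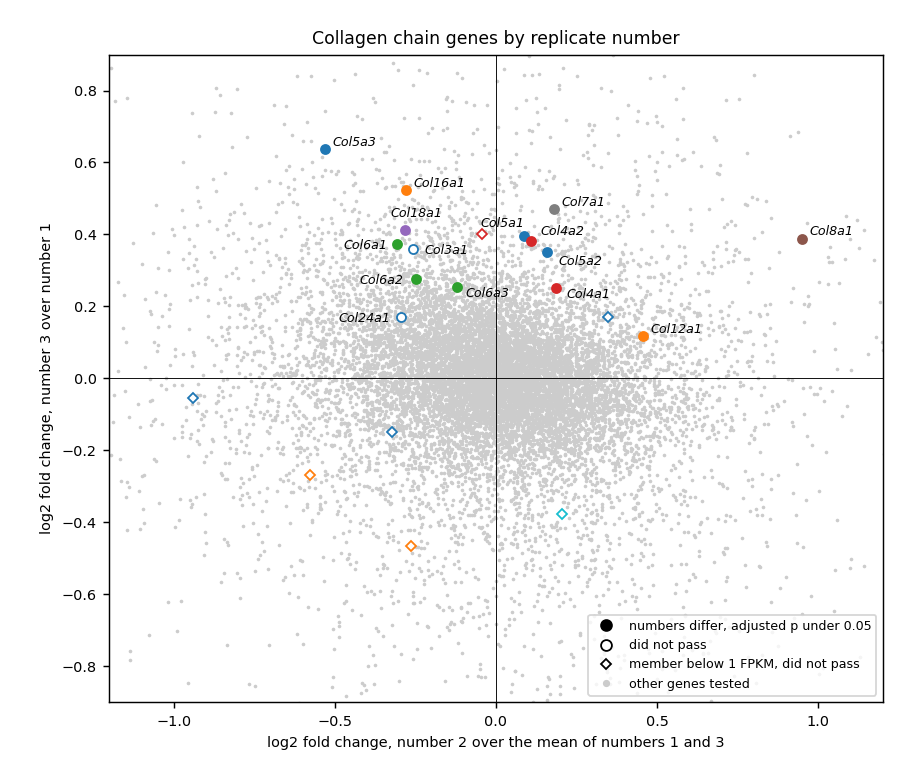
Points are tested genes by log2 fold change of number 2 over the mean of numbers 1 and 3 (horizontal axis) and of number 3 over number 1 (vertical axis), with collagen chains of at least 1 FPKM as named circles coloured by class, filled where the numbers differed. Lower collagen chains are open diamonds, other genes are grey dots, 278 genes lie beyond the axes, and all 15 named chains lie above 0 on the vertical axis.

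The genes that make and handle collagen were expressed as well. Of 21 genes of chain hydroxylation, glycosylation and folding, 18 were tested and 0 passed between the hairpin groups, with 16 of 18 log2 fold changes positive and a median of 0.13, beside 49.9% positive and a median of -0.00 over all genes. P4hb, a subunit of prolyl 4-hydroxylase, averaged 341 FPKM in shIRS2 and 308 FPKM in shControl, and Serpinh1, the collagen chaperone of the endoplasmic reticulum, averaged 276 FPKM in shIRS2 and 253 FPKM in shControl. Between number 2 and the mean of 1 and 3, 1 of 18 rose and 7 fell, beside 11.6% higher and 11.9% lower over all genes. P4ha2, a catalytic subunit of prolyl 4-hydroxylase, fell by 0.68 on the log2 scale and the lysyl hydroxylase gene Plod1 fell by 0.54, while P3h2, a prolyl 3-hydroxylase, rose by 0.49.

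Of 13 genes of propeptide processing and crosslinking, 7 were tested and 0 passed between the hairpin groups. Pcolce, the enhancer of procollagen C-proteinase, averaged 110.9 FPKM in shIRS2 and 107 FPKM in shControl. Between number 2 and the mean of 1 and 3, its relative Pcolce2 rose by 0.60 and the proteinase gene Bmp1 fell by 0.22 on the log2 scale, 1 of 7 each way beside the same 11.6% and 11.9%. Adamts2, Adamts3 and Tll1 had 0 counts and the crosslinking enzyme gene Lox had 1.

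Of 10 collagen receptor genes, 5 were tested and 0 passed between the hairpin groups. Itgb1, the beta chain shared by collagen-binding integrins, averaged 154 FPKM in shIRS2 and 134 FPKM in shControl, and Ddr2, a receptor kinase for fibrillar collagen, averaged 54.6 FPKM in shIRS2 and 51.9 FPKM in shControl. Ddr1, its relative, fell by 0.80 and Itga10, an integrin alpha chain, fell by 0.50 on the log2 scale between number 2 and the mean of 1 and 3, which makes 2 of 5 lower beside 11.9% of all genes. Of 4 small proteoglycan genes that coat fibrils, Lum and Bgn were tested and 0 passed in either comparison.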

How the data were processed

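RNA was measured in 3 shIRS2 and 3 shControl libraries of Glu-tag cells. Per the labels' protocols, libraries were strand-specific and read as 150 bp paired ends. Per the submitters' processing notes, the build was mm10. The aligner, counter and strand setting were not given in the sources used here. The authors deposited raw read counts per gene for 54532 genes. The authors also deposited FPKM values, which equal the counts divided by the listed gene length and a library total of 0.985 to 1.02 times the count sum. Columns were read as shControl or shIRS2 and numbered by their names alone, and 0 columns of sample values were left unused.

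Counts were filtered by filterByExpr with the group, which left 13472 genes, scaled by TMM and tested with edgeR 4.0.16 in R 4.3.3 by its robust quasi-likelihood test, two-sided, with Benjamini-Hochberg adjustment over all genes and a threshold of 0.05. Every log2 fold change, SE, interval and p is from edgeR unless DESeq2 1.42.0 or limma 3.58.1 is named. For Irs2 an exact two-sided permutation test on log2 CPM was added, which gave p = 0.6 and cannot go below 0.1 with 3 libraries against 3. The test was tried on simulated data for shIRS2 against shControl, where it recovered 99.5% of 200 genes changed 2-fold among 13310. It also called 11 unchanged genes. The simulated libraries carried no difference between replicate numbers, and their spread came from a fit with the number as a term. The changed genes were taken from the better expressed ones. The recovery therefore does not give the power of the group test in these data. The limit for 0 counts is 3 counts over all 6 libraries and covers counting error only, since reads carry no molecular identifiers.

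The series calls the libraries biological triplicates, but every description carries the same replicate number, so the spread behind each p-value is that of these libraries, which may be technical. Same-numbered libraries deviated together from their group means (correlations 0.201, 0.645 and 0.315 for numbers 1, 2 and 3), so the numbers were taken as pairing the libraries from the data, and the fit with the replicate block is given beside the group result.

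Alternatives were other size factors, no filter, DESeq2, limma on log2(FPKM + 1), the block, no group term and leaving out each library. The collagen genes, their classes, the lists and the contrasts of the replicate numbers were chosen with earlier results of these data known. Chains named with every library were Col3a1, Col17a1, the 12 of highest mean FPKM and the 5 of smallest p between hairpin groups and between numbers. In each other list up to 4 genes of smallest p could be named, and P4hb, Serpinh1, Pcolce, Krt8 and others given as levels were chosen after their values were seen. Coding models come from GENCODE M21 (GRCm38).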

Additional observations from a re-analysis of the deposited data

How the results depend on the processing

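Between the hairpin groups, 0 collagen chain genes were called under each alternative run. Over all genes the count was 0, against 6 with no filter on low counts, 2 by DESeq2, 1 with the replicate block and 4 by DESeq2 with the replicate block, which was chosen after seeing the data, and it was 0 to 0 when each library was left out in turn. The block changed no call of a collagen gene. The Irs2 log2 fold change was 0.02 to 0.29 with a library left out. For any difference between numbers, 2638 genes became 1634 by DESeq2, 803 by limma and 798 to 3774 with a library left out, and 13 collagen genes became 4 by limma and 8 to 15. For number 2, 3169 genes became 1968 by DESeq2, 1836 by limma and 808 to 3687, and 6 collagen genes became 2 to 11. For number 3 against number 1, 32 genes became 204 with no filter, 0 by limma, 0 without the group term and 64 to 264, and 4 collagen genes became 11, 0, 0 and 3 to 12. The cause was not tested.

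Directions turned with a library left out for several chains. They were not all low or small: Col8a1 averaged 7.77 FPKM and had a log2 fold change of 0.29 between groups in the full fit. Between groups the log2 fold changes ran from -0.19 to 0.63 for Col14a1, -0.095 to 0.30 for Col16a1, -0.19 to 0.14 for Col18a1, -0.59 to 0.14 for Col2a1, -0.021 to 0.22 for Col4a2, -0.010 to 0.26 for Col4a4, -0.059 to 0.52 for Col5a3, -0.047 to 0.27 for Col6a1, -0.15 to 0.12 for Col7a1 and -0.13 to 0.64 for Col8a1. For number 2 they ran from -0.64 to 0.012 for Col11a2, -0.047 to 0.67 for Col1a2, -0.0047 to 0.22 for Col4a2, -0.25 to 0.15 for Col4a4 and -0.50 to 0.14 for Col9a3, and for number 3 against number 1 from -0.71 to 0.47 for Col11a2, -1.14 to 0.53 for Col14a1, -0.40 to 0.73 for Col1a2, -0.10 to 0.45 for Col24a1, -0.62 to 0.64 for Col2a1 and -0.92 to 0.33 for Col9a3. Each of these missed the threshold in its full fit. With the main transcript's length, an alternative added after seeing the data, the log2 ratio of Col4a1 over Col3a1 was -0.43. Chains of under 100 counts in all, such as Col17a1 and Col2a1, are limited by depth.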
